A study of Rattus norvegicus with 40 samples.

Results

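Astrocyte transcripts were followed in RNA from microglia isolations of the rat medulla and cervical spinal cord. The set held 6 genes listed by gene ID, out of 32883 gene IDs in the count table, and all 6 had counts: Gfap (ENSRNOG00000002919), Aqp4 (ENSRNOG00000016043), Slc1a2 (ENSRNOG00000005479), Slc1a3 (ENSRNOG00000016163), Aldoc (ENSRNOG00000011452) and S100b (ENSRNOG00000001295). The names came with the list of IDs, because the count table holds IDs without symbols. The samples were Sprague Dawley rats of 8 weeks whose dams breathed either room air in mock cycles (normoxia, 21% oxygen throughout) or air cycling between 10.5% and 21% oxygen (intermittent hypoxia). Exposure ran from gestational day 10 to day 21, daily for 8 hours with 15 cycles in each hour, and all pups were born and raised in normal housing, without further exposure. Cells carrying CD11b, a surface integrin of microglia and other myeloid cells, were pulled out of the medulla and of cord segments C3 to C6 with antibody-coated magnetic beads. The 20 animals, 5 of each sex and exposure, each gave a library per region, which makes 8 groups of 5 libraries: male normoxia, male hypoxia, female normoxia and female hypoxia, in the medulla and in the cord. No genotype differed between the groups, and 1 male and 1 female came from each litter, so replicates within a group were separate animals of separate litters.

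Astrocytes are the glia that take up glutamate from synapses, buffer water and ions, and line blood vessels with their end feet. Gfap encodes their intermediate filament protein, S100b a calcium-binding protein and Aldoc the brain form of the glycolytic enzyme aldolase. Aqp4 encodes the water channel of the end feet. Slc1a2 (GLT-1) and Slc1a3 (GLAST) encode the main glial glutamate transporters. Microglia are the resident macrophages of the tissue, so in CD11b isolations these transcripts mark RNA of a cell type that the selection was not aimed at, except where a gene is also transcribed by the selected cells. The microglial identity of the isolations could not be compared with marker genes, since no symbol could be paired with the other IDs, and the labels give no purity. In bulk libraries such as these, fewer astrocytes and less astrocyte RNA per cell cannot be told apart.

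The sequences upstream of 4 of these genes are given because Gfap, Aldoc and S100b correlated across libraries, while the correlations of Slc1a3 with them did not pass the threshold. Those of Aqp4 and Slc1a2 with these 3 did not pass it either, and their sequences are not shown. Each sequence is the 250 bases before the annotated start in RefSeq, on rat build GRCr8, written on the gene's strand. The read counts were made on the older build rn6. The Gfap window is chr10:88361662-88361911 on the minus strand, that of Aldoc chr10:63715294-63715543 on the plus strand, that of S100b chr20:12381082-12381331 on the minus strand, and that of Slc1a3 chr2:59557809-59558058 on the minus strand. Slc1a3 has 3 starts in the table, of which the first was taken. Capitals mark the letters CCAAT, known from promoters as a binding motif, and the letters GGGCGG of the so-called GC box, on both strands; these motifs do not overlap here.
Gfap: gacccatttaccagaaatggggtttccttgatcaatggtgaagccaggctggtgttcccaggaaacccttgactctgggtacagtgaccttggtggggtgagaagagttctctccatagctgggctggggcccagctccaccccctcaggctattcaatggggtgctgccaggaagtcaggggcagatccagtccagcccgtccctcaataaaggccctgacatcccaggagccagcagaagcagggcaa
Aldoc: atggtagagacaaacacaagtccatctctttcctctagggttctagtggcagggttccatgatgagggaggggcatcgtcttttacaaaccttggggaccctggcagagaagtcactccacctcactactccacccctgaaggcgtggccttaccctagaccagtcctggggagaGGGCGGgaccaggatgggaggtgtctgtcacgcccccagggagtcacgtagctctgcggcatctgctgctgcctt
S100b: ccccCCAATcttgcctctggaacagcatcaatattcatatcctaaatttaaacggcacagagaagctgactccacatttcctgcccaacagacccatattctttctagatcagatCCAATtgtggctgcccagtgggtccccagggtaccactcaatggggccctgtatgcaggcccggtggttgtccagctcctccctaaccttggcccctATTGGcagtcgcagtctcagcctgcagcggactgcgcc
Slc1a3: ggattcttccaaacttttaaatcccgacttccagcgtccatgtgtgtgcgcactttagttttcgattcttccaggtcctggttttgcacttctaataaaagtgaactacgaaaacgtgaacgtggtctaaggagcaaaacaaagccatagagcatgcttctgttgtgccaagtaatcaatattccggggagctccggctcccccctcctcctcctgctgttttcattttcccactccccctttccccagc

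S100b held 3 CCAAT matches and Aldoc 1 GC box, while Gfap and Slc1a3 held neither, and TATAAA was found in 0 of the 4 windows. Over the 33469 promoter windows of the same length, 34.0% held CCAAT, 30.5% GGGCGG and 12.9% TATAAA. GC content was 57.6% for Gfap, 58.0% for Aldoc, 54.8% for S100b and 48.0% for Slc1a3, against a median of 51.2% over all windows. Gfap, Aldoc and S100b therefore had no motif of these 3 in common, which describes only these letters in these windows.

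Library totals ran from 6061346 to 24039411 reads (median 13260257), and counting limited the precision of the rarest transcripts. The library of female hypoxia medulla replicate 3 stood apart, with the lowest total and 13379 genes detected, while its 4 companions had 17250 to 17850. The cord over medulla values of female hypoxia are therefore also given without it. Female hypoxia cord libraries were deeper than female normoxia cord libraries, at 13570283 to 20650051 against 8818241 to 13327037 reads, and their TMM scaling factors were 0.852 to 0.967 against 1.03 to 1.06. Levels below are in CPM, the counts of a library scaled to a common total. Lengths of the genes on build rn6 were not used here, so levels are compared between libraries. Between genes, only ranks by mean CPM are given, without correction for length. Differences are log2 fold changes of edgeR's quasi-likelihood test with TMM scaling, with standard errors (SE). A gene was called where its p, adjusted by Benjamini-Hochberg over all genes tested, was under 0.05.

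**Figure D1:**
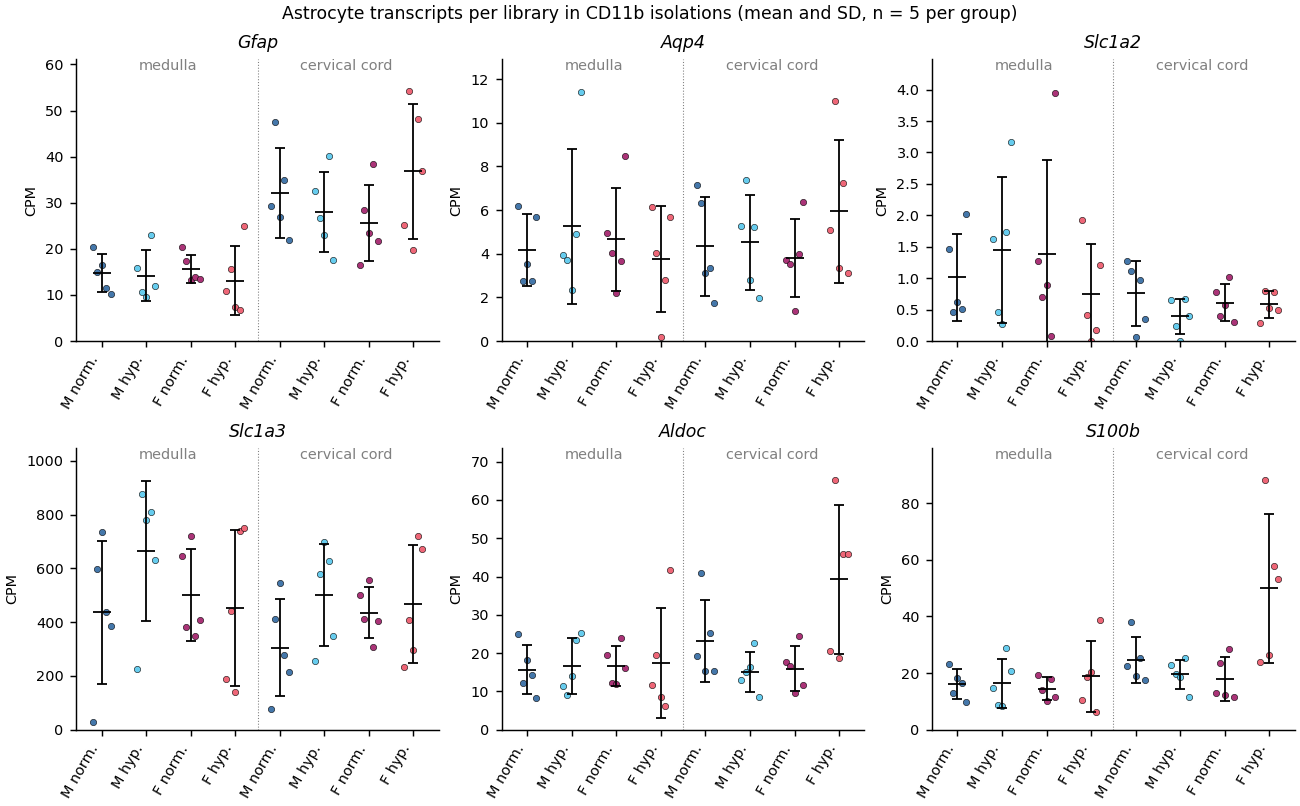
CPM of each astrocyte gene in each of the 40 libraries (points), by group on the horizontal axis (M and F, males and females; norm. and hyp., normoxia and hypoxia), with group means and SD as bars, clipped at 0. Gfap lay higher in the cord groups than in the medulla groups, and S100b and Aldoc reached their highest values in the female hypoxia cord, at 88.2 and 65.1 CPM.

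Gfap was higher in the cord in more animals than any other gene of the set. In the medulla it read 20.4, 14.9, 16.6, 11.6 and 10.2 CPM in male normoxia, 15.8, 10.6, 9.49, 23.1 and 12 in male hypoxia, 20.3, 17.4, 13.3, 13.8 and 13.5 in female normoxia, and 10.9, 15.7, 7.42, 6.63 and 24.9 in female hypoxia, animals 1 to 5 in that order. In the cords of the same animals it read 29.2, 47.5, 27.0, 35.0 and 22.0 CPM in male normoxia, 32.6, 26.6, 23.0, 40.1 and 17.6 in male hypoxia, 16.4, 28.4, 23.5, 38.3 and 21.7 in female normoxia, and 25.1, 54.2, 19.8, 48.2 and 36.8 in female hypoxia. The cord exceeded the medulla in 19 of 20 animals, with a median ratio of 2.1 and a range of 0.81 to 7.22, and the exception was animal 1 of female normoxia. The libraries of the regions did not overlap in male normoxia, and overlapped in the other 3 sex and exposure groups.

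Averaged over the 4 sex and exposure groups, with each animal as its own control, Gfap rose from medulla to cord by 1.11 (log2, SE 0.14, edgeR adjusted p 4e-06), a fold of 2.16. S100b, which oligodendrocyte-lineage cells can also transcribe, rose by 0.70 (SE 0.19, adjusted p 0.00921) and was higher in the cord in 16 of 20 animals. Aldoc read 0.46 (SE 0.18, adjusted p 0.0663), higher in 13 of 20. Aqp4 read 0.14 (SE 0.25, adjusted p 0.728), Slc1a2 -0.70 (SE 0.44, adjusted p 0.269) and Slc1a3 -0.11 (SE 0.11, adjusted p 0.534). So 2 of 6 genes were called, both higher in the cord, against 25.2% of the 14832 genes tested called at all and 10.5% called higher. The median log2 fold change was 0.30 over the 6 genes and 0 over all genes.

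Within single groups the calls were on Gfap, and in female hypoxia also on S100b and Aldoc. In male normoxia 1 of 6 was called, Gfap at 1.14 (SE 0.27, edgeR adjusted p 0.0156), against 7.11% of all genes called and 2.8% called higher. In male hypoxia 1 of 6 was called, Gfap at 1.01 (SE 0.27, adjusted p 0.0252), against 8.2% and 3.02%. In female normoxia 0 of 6 were called, against 8.1% of all genes, and Gfap read 0.63 (SE 0.27, adjusted p 0.141). At an unadjusted p under 0.05, Gfap was the 1 gene of the 6 in female normoxia, and no other test setting that was run called any of the 6 there.

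Of the 4 groups, female hypoxia had the largest cord over medulla value for each of the 6 genes. Gfap rose by 1.66 (SE 0.28, edgeR adjusted p 0.000447), S100b by 1.58 (SE 0.39, adjusted p 0.00624) and Aldoc by 1.44 (SE 0.37, adjusted p 0.00745), and each was higher in the cord in 5 of 5 animals. These 3 of 6 stood against 25.2% of all genes called and 15.2% called higher, with a median over the 6 of 1.20 and over all genes of 0.02. Aqp4 read 0.96 (SE 0.52, adjusted p 0.177), Slc1a3 0.33 (SE 0.23, adjusted p 0.298) and Slc1a2 0.25 (SE 0.88, adjusted p 0.862). Without medulla replicate 3, the shallow library, Gfap read 1.73 (adjusted p 0.000772), S100b 1.90 (adjusted p 0.00257) and Aldoc 1.52 (adjusted p 0.0116), while Aqp4 read 0.58 (adjusted p 0.438), Slc1a3 0.16 (adjusted p 0.683) and Slc1a2 -0.17 (adjusted p 0.921). Fitted on the 10 libraries of the group alone, the values were 1.65 for Gfap, 1.57 for S100b and 1.43 for Aldoc, with adjusted p of 0.0792, 0.136 and 0.121, so 0 of 6 were called. In that fit 86 genes in all were called, against 3736 with all 40 libraries.

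The Gfap calls in males depended on single libraries. In the region fits the animal is a block, so leaving out a library also takes its partner out of the comparison. Fits without either library of an animal were therefore nearly alike. In male hypoxia the call was lost in 9 of the 11 fits without a single library, and also without the animal block (0.99, edgeR adjusted p 0.0538). In male normoxia it was lost without medulla replicate 4 or 5 or without cord replicate 2, 4 or 5, with values of 0.99 to 1.15 and adjusted p of up to 0.0762. The value stayed between 0.92 and 1.31 in all of these fits. The counts over all genes, against which these calls are read, depended on single libraries too. Of the 1055 genes called in male normoxia, the number fell to between 318 and 483 without replicate 1, 3, 4 or 5 of either region, and rose to 2244 without female hypoxia medulla replicate 3. In male hypoxia (1216) it was 357 to 735 without replicate 3, 4 or 5 of either region, and 2190 without that library. In female normoxia (1201) it was 264 to 797 without replicate 1, 2, 3 or 5 of either region, and 2805 without that library.

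**Figure D2:**
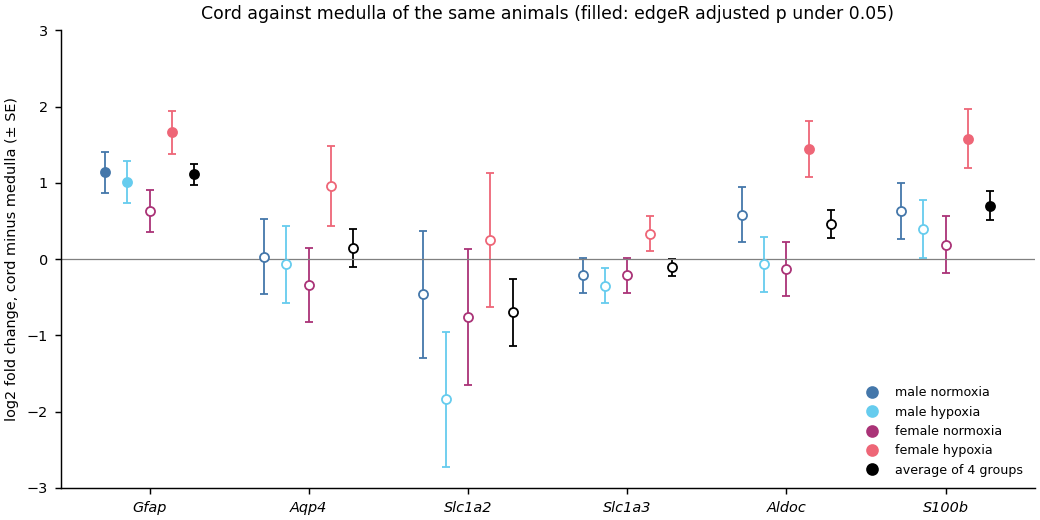
Log2 fold change of cord over medulla (vertical axis, with SE as bars) for each astrocyte gene, in each sex and exposure group and averaged over the 4 groups, 5 animals per group. Filled points had an edgeR adjusted p under 0.05; Gfap was filled in 3 of the 4 groups, and Aldoc and S100b in female hypoxia.

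Whether the regional difference itself changed with exposure was tested in each sex. In males 0 of 6 genes were called, as were 0% of all genes; edgeR found 345 of 14832 genes at an unadjusted p under 0.05, DESeq2 called 2 genes and limma voom 3. In females 1 of 6 was called: for Aldoc the cord minus medulla difference was larger after hypoxia by 1.57 (SE 0.51, edgeR adjusted p 0.0323), where 21.1% of all genes were called and 13.4% called higher. Gfap read 1.03 (SE 0.39, adjusted p 0.0636) and S100b 1.39 (SE 0.54, adjusted p 0.0708). The Aldoc call was lost without the animal block (1.38, adjusted p 0.0969) and in 12 of 20 fits that left out a library (replicate 1, 3, 4 or 5 of normoxia or replicate 2 or 4 of hypoxia, from either region; 1.16 to 1.6, adjusted p 0.0536 to 0.102), while DESeq2 and limma voom each called Gfap, Aldoc and S100b. Without female hypoxia medulla replicate 3, Aldoc read 1.62 (adjusted p 0.0331) and S100b 1.69 (adjusted p 0.0253).

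Exposure was then compared within each region, and S100b and Aldoc differed in the female cord. S100b in the cord read 13.1, 23.5, 12.2, 28.5 and 11.5 CPM in female normoxia and 23.8, 88.2, 26.4, 57.9 and 53.4 CPM in female hypoxia, animals 1 to 5. The lowest hypoxia libraries lay within the upper end of the normoxia range, and 3 of 5 lay above all normoxia libraries. Aldoc read 17.6, 16.6, 9.52, 24.5 and 11.6 CPM in female normoxia and 20.5, 65.1, 18.8, 45.9 and 45.9 CPM in female hypoxia, again with 3 of 5 above every normoxia library. The means were 17.8 ± 7.74 and 50.0 ± 26.3 CPM (SD, n = 5) for S100b and 16.0 ± 5.85 and 39.2 ± 19.5 CPM for Aldoc.

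In the fit, S100b rose by 1.67 (SE 0.35, edgeR adjusted p 0.00121), a fold of 3.18, and Aldoc by 1.47 (SE 0.36, adjusted p 0.00413), a fold of 2.77. Gfap, at 25.7 ± 8.28 and 36.8 ± 14.7 CPM (SD, n = 5), read 0.69 (SE 0.29, adjusted p 0.0731). Aqp4 read 0.81 (SE 0.46, adjusted p 0.179) and Slc1a3 0.24 (SE 0.38, adjusted p 0.664). Slc1a2 did not pass the filter on low counts in the cord fit, so 5 genes were tested there. These 2 of 5 calls, both higher after hypoxia, stood against 32.8% of 13593 genes called and 18.2% called higher, with medians of 0.81 over the 5 and -0.01 over all genes. S100b and Aldoc kept their calls in all 7 other settings and in all 10 fits without a single library, with values of 1.30 to 1.90 for S100b and 1.15 to 1.67 for Aldoc. Without female hypoxia cord replicate 2, the highest library for both, S100b read 1.30 (adjusted p 0.00511) and Aldoc 1.15 (adjusted p 0.0187), and Gfap 0.46 (adjusted p 0.247). Gfap was called in 3 of the 10 fits without a single library, where it ran from 0.46 to 0.87 (lowest edgeR adjusted p 0.0319). It was also called in 2 of the 7 other settings, where it ran from 0.52 to 0.71. Library depth and the TMM factors moved with exposure in this comparison, as given above, and their part in the result was not tested. With plain library totals, which drop the TMM factors only, S100b read 1.5 (edgeR adjusted p 0.00165) and Aldoc 1.30 (adjusted p 0.00624).

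No astrocyte gene was called for exposure in the female medulla or in either region of males. In the female medulla 0 of 6 were called and 0% of 14151 genes, with 2180 genes at an unadjusted p under 0.05 by edgeR, 53 called by DESeq2 and 1 by limma voom. In the male medulla the counts were 0 of 6 and 0%, with 122 genes at an unadjusted p under 0.05. In the male cord they were 0 of 5 and 0%, with 841 genes at an unadjusted p under 0.05 and 1 called by DESeq2. The values for the male cord were -0.34 for S100b (SE 0.35, adjusted p 0.852), -0.63 for Aldoc (SE 0.36, adjusted p 0.764) and -0.21 for Gfap (SE 0.29, adjusted p 0.886).

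The sexes were compared under each exposure. In the hypoxia cord, S100b was higher in females than in males by 1.48 (SE 0.35, edgeR adjusted p 0.00664) and Aldoc by 1.51 (SE 0.36, adjusted p 0.00795). The male hypoxia cords read 23.0, 19.5, 18.7, 25.2 and 11.7 CPM for S100b and 12.9, 15.1, 16.3, 22.6 and 8.53 CPM for Aldoc, so 4 of 5 female hypoxia libraries for S100b and 3 of 5 for Aldoc lay above all male ones. These were 2 of 5 genes called, against 19.6% of all genes called and 11.4% called higher in females. Library totals were 8145033 to 12016434 reads in the male hypoxia cord and 13570283 to 20650051 in the female. The TMM factors were 0.984 to 1.03 against 0.852 to 0.967. Depth and scaling thus moved with sex in this comparison, and their part in the result was not tested. In the normoxia cord 0 of 5 were called, against 6.56% of all genes, with S100b at -0.53 (SE 0.35, adjusted p 0.39) and Aldoc at -0.60 (SE 0.36, adjusted p 0.342). Over all genes, the 2662 called in the hypoxia cord became 1477 without female replicate 2 and 1754 without female replicate 3. The 892 called in the normoxia cord became 136 to 386 without male replicate 2, 4 or 5 or female replicate 3, 4 or 5. In the medulla 0 of 6 were called under normoxia, against 0.0707% of all genes, and 0 of 6 under hypoxia, against 0.0777%.

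The difference in exposure effect between the sexes was tested directly. In the cord it was 2.1 for Aldoc (SE 0.51, edgeR adjusted p 0.00627) and 2.01 for S100b (SE 0.49, adjusted p 0.00627), and both kept their calls in all 6 other settings and in all 20 fits without a single library. These 2 of 5 stood against 23.2% of all genes called and 13.2% called higher. Gfap read 0.90 (SE 0.41, adjusted p 0.112), Aqp4 0.78 (SE 0.65, adjusted p 0.404) and Slc1a3 -0.46 (SE 0.54, adjusted p 0.568). In the medulla 0 of 6 and 0% of all genes were called, with 879 genes at an unadjusted p under 0.05 by edgeR, 2 called by DESeq2 and 1 by limma voom. The comparisons of the female hypoxia cord share its 5 libraries, so their calls on S100b and Aldoc rest on the same samples. The depth and TMM factors of these libraries, given above, enter each of these comparisons, and their part was not tested.

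The scaling of the libraries set how calls over all genes split by direction, without changing the direction of any call on S100b, Aldoc or Gfap. With plain library totals in place of TMM factors, an alternative chosen after seeing the data, the share of called genes that were higher went from 55.4% to 34.1% in the female cord by exposure, from 58.3% to 35.4% in the hypoxia cord by sex, from 48.4% to 64.9% in the normoxia cord by sex, and from 56.7% to 35.2% in the cord interaction. For cord over medulla it went from 60.3% to 39% in female hypoxia and from 41.9% to 30.2% in the average, and from 63.5% to 40.8% in the female change with exposure. The median of all genes moved from -0.01 to -0.16 in the female cord by exposure, from -0.01 to -0.18 in the cord interaction, from 0.01 to -0.10 in the hypoxia cord by sex, from 0.02 to -0.10 in female hypoxia by region, and from 0.07 to -0.09 in the female change with exposure.

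Aqp4, the water channel gene, was sparse in both regions. It ran from 0.165 to 11.4 CPM over the 40 libraries, with medians of 3.98 in the medulla and 3.85 in the cord. Its lowest value was that of female hypoxia medulla replicate 3, with a single count, and its highest that of male hypoxia medulla replicate 5, with 152 counts. Cord exceeded medulla in 11 of 20 animals, with ratios from 0.175 to 13.6; the highest rests on that single count, and the next was 2.72. The group means lay between 3.77 ± 2.42 CPM (SD, n = 5) in the female hypoxia medulla and 5.97 ± 3.29 CPM in the female hypoxia cord, and the ranges of all 8 groups overlapped. It was called in 0 of the 17 comparisons. In female hypoxia its cord over medulla value ran from 0.58 to 1.46 when single libraries were left out, and it was called without replicate 5 of the medulla (1.46, edgeR adjusted p 0.0467) or of the cord (1.46, adjusted p 0.0466).

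Slc1a2, the transporter GLT-1, was close to the counting limit. It ran from 0 to 3.95 CPM, with medians of 0.794 in the medulla and 0.55 in the cord. It had 0 counts in female hypoxia medulla replicate 3, where 3 counts would be 0.495 CPM, and in male hypoxia cord replicate 3, where they would be 0.269 CPM, and these limits cover counting error only. Cord was below medulla in 14 of 20 animals, and in 5 of 5 in male hypoxia, where the log2 fold change was -1.84 (SE 0.89, edgeR adjusted p 0.219). Its average over groups, -0.70, was called by limma voom with quality weights (-0.95, adjusted p 0.0404) and by none of the other settings.

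Slc1a3, the transporter GLAST, spread widely between animals. It ran from 28.5 to 876 CPM, with medians of 521 in the medulla and 409 in the cord. By mean CPM over all libraries, without correction for gene length, it ranked 260 among the gene IDs. The other 5 genes ranked 6755 to 13221. Whether the selected cells also transcribe Slc1a3 was not tested. In male normoxia the medulla read 28.5, 599, 735, 437 and 387 CPM and the cord 77.2, 413, 544, 278 and 214 CPM, animals 1 to 5. Animal 1 was thus low in both regions. In male hypoxia the medulla read 224, 876, 782, 810 and 632 CPM and the cord 255, 579, 699, 629 and 350 CPM, and animal 1 was again the lowest in both. In female normoxia the medulla read 648, 382, 720, 347 and 408 CPM and the cord 501, 411, 556, 309 and 403 CPM. In female hypoxia the medulla read 189, 443, 139, 739 and 751 CPM and the cord 235, 407, 296, 720 and 673 CPM. The 8 groups overlapped throughout, and Slc1a3 was called in 0 of the 17 comparisons.

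Animals high in Slc1a3 in the medulla were high in the cord. Over 20 animals, deviations from the group mean in the medulla and in the cord correlated at r = 0.93 and rho = 0.91 (permutation p 1e-05 for each, the smallest that 100000 permutations can give; adjusted 6e-05 over the 6 genes, two-sided). Without the 2 animals farthest from the median, animal 1 of male normoxia and animal 1 of male hypoxia, r was 0.88, and within the 4 groups it was 0.88 to 0.95. Without the animal of the shallow medulla library it was 0.94. Among 12960 IDs with a mean of at least 1 CPM, 26 (0.201%) had an r this high, and the median r was 0.16. For the other 5 genes the correlation between the regions was 0.03 to 0.28, with adjusted permutation p of 0.733 to 0.877 and rho of -0.06 to 0.32 (adjusted p 0.726 to 0.795). Libraries of an animal share litter and handling of that animal, which the labels do not break down further, and their part in the correlation was not tested.

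**Figure D3:**
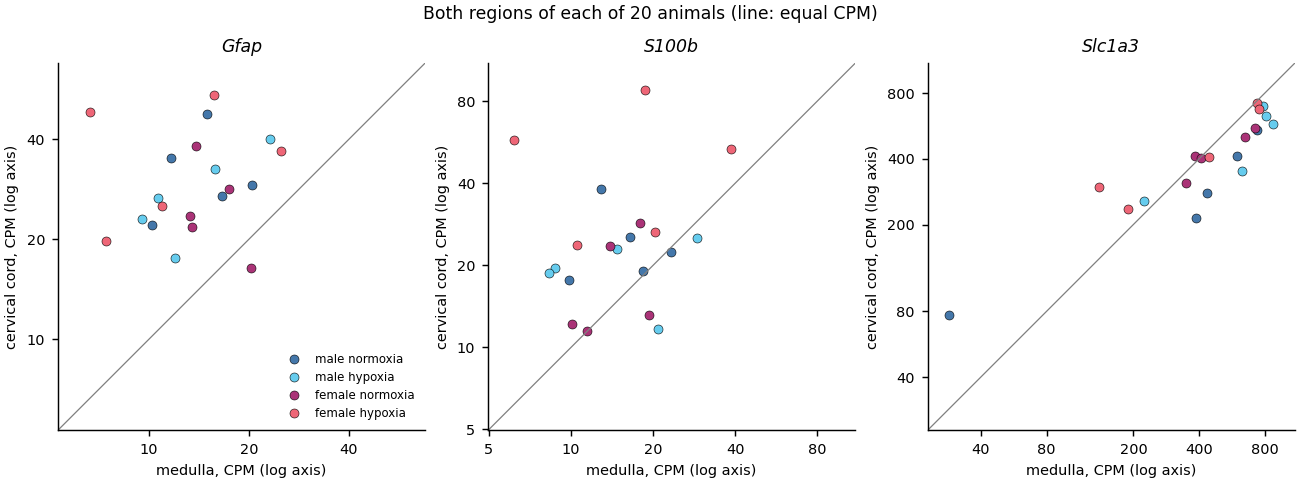
CPM in the cord (vertical) against CPM in the medulla (horizontal) of the 20 animals, on log axes, for Gfap, S100b and Slc1a3, coloured by sex and exposure, with a line of equal CPM. Slc1a3 followed the line across animals (r = 0.93 of deviations from group means), while 19 of 20 animals lay above it for Gfap.

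Gfap, S100b and Aldoc varied together from library to library within groups. In the cord, deviations from group means over the 20 libraries correlated at r = 0.92 for Gfap with S100b (rho 0.92), r = 0.91 for Aldoc with S100b (rho 0.89) and r = 0.83 for Gfap with Aldoc (rho 0.80), with adjusted permutation p of 0.0003 to 0.0012 for r and 0.0003 to 0.00285 for rho (30 correlations, two-sided). In the medulla the r values were 0.79 for Gfap with S100b (rho 0.70), 0.84 for Aldoc with S100b (rho 0.79) and 0.79 for Gfap with Aldoc (rho 0.72), with adjusted permutation p of 0.00198 to 0.00613 for r and 0.0039 to 0.0248 for rho. Leaving out the 2 farthest libraries left 0.77 to 0.90 in the cord and 0.64 to 0.72 in the medulla. Within the 4 groups all signs were positive, from 0.47 to 0.99 in the cord and from 0.09 to 0.99 in the medulla.

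Against all other IDs, S100b was the second closest partner of Gfap in the cord, since 2 of 12959 IDs (0.0154%, S100b included) correlated with it as strongly, and Aldoc was at rank 10 (0.0772%). For Aldoc in the cord, S100b was at rank 4. Read the other way, Gfap was at rank 26 among the partners of Aldoc and at rank 5 among those of S100b. In the medulla the ranks among partners of Gfap were 20 for Aldoc and 23 for S100b, while Gfap was at rank 237 for Aldoc and 129 for S100b. The median correlation of all IDs with Gfap was -0.05 in the cord and 0.05 in the medulla. The libraries share depth and isolation within each point, and the part of these in the correlations was not tested.

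The remaining genes went partly with these. Aqp4 and Slc1a2 correlated in the medulla at r = 0.76 (rho 0.79, adjusted permutation p 0.0012 and 0.0008) and 0.73 without the 2 farthest libraries, and in the cord at 0.34 (rho 0.40, adjusted permutation p 0.319 and 0.168). In the cord Aqp4 read r = 0.51 to 0.55 with Gfap, Aldoc and S100b, with adjusted permutation p of 0.0832 to 0.102 (rho 0.48 to 0.55, 0.0714 to 0.114). In the medulla it read 0.12 to 0.46 with them (adjusted permutation p 0.319 to 0.829). Slc1a2 read r = 0.19 to 0.43 with these 3 in the medulla (adjusted permutation p 0.244 to 0.633). In the cord it read 0.36 to 0.43 (adjusted permutation p 0.152 to 0.258). The 5 pairs with Slc1a3 read -0.18 to 0.06 in the medulla and -0.38 to 0.34 in the cord, and 0 of these 10 had an adjusted permutation p under 0.05. Slc1a3 with Aldoc in the cord went from 0.34 to 0.54 without the 2 farthest libraries. A difference between the pairs with and without Slc1a3 was not tested.

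**Figure D4:**
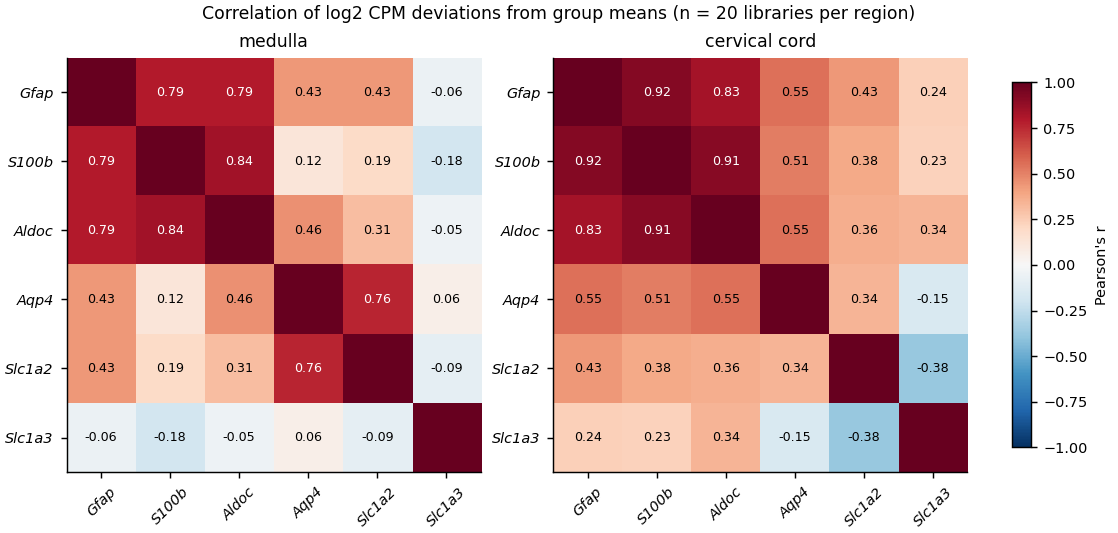
Pearson's r between astrocyte genes, from log2 CPM deviations from group means over 20 libraries of the medulla (left) and of the cord (right); red is positive and blue negative. Pairs of Gfap, S100b and Aldoc read 0.79 to 0.84 in the medulla and 0.83 to 0.92 in the cord, and the row of Slc1a3 lies between -0.38 and 0.34.

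The proportions of these 3 transcripts were compared within libraries. In the cord the count of S100b over that of Gfap in the same library was 0.707 to 0.802 in male normoxia, 0.629 to 0.812 in male hypoxia and 0.522 to 0.828 in female normoxia, and 0.95 to 1.63 in female hypoxia, which lay above all 15 other cord libraries. The difference of female hypoxia from female normoxia was 0.94 (log2, exact permutation p 0.00794, two-sided, the smallest that 5 against 5 can give; adjusted 0.0952 over 12 tests chosen after seeing the values). For Aldoc over Gfap the cord means were 0.647 ± 0.254 in female normoxia and 1.03 ± 0.182 in female hypoxia (SD, n = 5), a log2 difference of 0.73 (exact permutation p 0.0317, adjusted 0.19). For S100b over Aldoc it was 0.21 (exact permutation p 0.302, adjusted 0.452). In the medulla S100b over Gfap ran from 0.863 to 1.42 in male normoxia and 0.821 to 1.73 in male hypoxia. It was 0.758 to 1.29 in female normoxia and 0.936 to 2.73 in female hypoxia. These ranges overlapped that of the female hypoxia cord. In the female medulla its log2 difference by exposure was 0.57 (exact permutation p 0.0873, adjusted 0.248). How often ratios of other genes separate the cord groups was not tested. None of the 12 differences by exposure passed after adjustment.

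**Figure D5:**
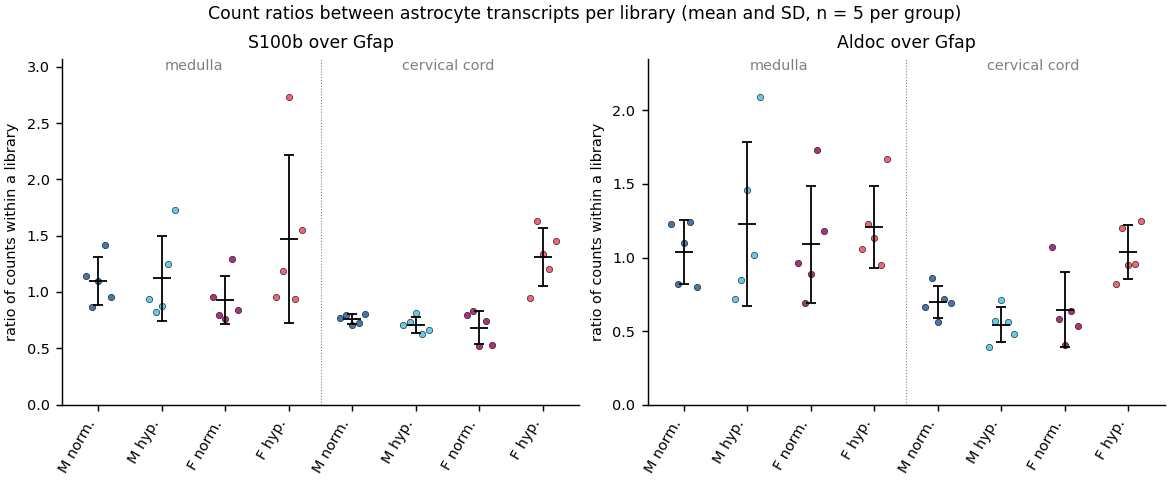
Ratio of S100b to Gfap counts (left) and of Aldoc to Gfap counts (right) in each library, by group, with mean and SD. The 5 female hypoxia cord libraries lie at 0.95 to 1.63 for S100b over Gfap, above the other 15 cord libraries at 0.522 to 0.828. The medulla libraries, at 0.758 to 2.73, overlap them.

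Between regions the ratios shifted toward Gfap. Across 20 animals, the log2 ratio of Gfap to S100b was 0.41 higher in the cord (SD 0.48, higher in 17 of 20, sign-flip permutation adjusted p 0.00337), that of Gfap to Aldoc 0.66 (SD 0.57, 17 of 20, adjusted permutation p 0.0004), that of Gfap to Aqp4 0.94 (SD 1.09, 19 of 20, adjusted permutation p 0.00337) and that of Gfap to Slc1a3 1.22 (SD 0.87, 19 of 20, adjusted permutation p 0.0003). The 10 ratios were chosen after seeing the values, and Slc1a2 was left out of them for its 0 counts. Aqp4 to Slc1a3 read 0.28 (SD 1.10, 11 of 20, adjusted permutation p 0.271). Of the remaining 5, S100b to Slc1a3, Aldoc to Slc1a3 and S100b to Aldoc were higher in the cord, with log2 ratios of Slc1a3 to S100b of -0.81, of Slc1a3 to Aldoc of -0.56 and of Aldoc to S100b of -0.25 (adjusted permutation p 0.00682, 0.0453 and 0.0273). Aqp4 to Aldoc and Aqp4 to S100b read -0.28 and -0.53 (adjusted permutation p 0.259 and 0.0723). Ratios taken within a library do not depend on the scaling of libraries.

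Slc1a3, with medians of 521 CPM in the medulla and 409 CPM in the cord, was left out of a sum over the set. The other 5 transcripts together took 22.1 to 112 CPM in the medulla (median 47.8) and 40.2 to 219 CPM in the cord (median 73.5). The female hypoxia cord ran from 68.9 to 219 CPM and the female normoxia cord from 47.2 to 96.3, which overlap. Other IDs were ranked by mean Pearson correlation of log2 CPM with the 6 genes over the 40 libraries. Deviations from group means were not taken here, so differences between regions and groups enter these values. The 2 IDs most like the set were ENSRNOG00000048273 (mean r 0.56, 0.88 with Aldoc, 0.19 with Slc1a3 and 0.17 with Slc1a2) and ENSRNOG00000006075 (mean r 0.55), of 12955 compared. The first averaged 21.6 CPM in the medulla and 54.1 CPM in the cord, and the second 4.18 and 8.18 CPM. No symbol could be paired with either.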

How the data were processed

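Libraries came from 40 CD11b isolations, 20 animals by region, in 8 groups. The deposited values are raw counts of reads per gene ID; the submitters' processing notes name TopHat2 2.1, HTSeq and edgeR with build rn6, without roles. No strand setting or annotation is given in the sources used here; overlapping or antisense genes may share reads.

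From the deposited counts, differences were tested with edgeR 4.0.16 (R 4.3.3; quasi-likelihood F test, TMM, filterByExpr with a minimum count of 10). Region used all 40 libraries (14832 genes) with the animal as a block; exposure, sex and their interaction used the 20 libraries of a region (14151 genes in the medulla, 13593 in the cord). The SE was derived from the F statistic. Both regions of an animal are paired by the series design. Deviations from group means correlated at 0.07 to 0.42, positive in 20 of 20 animals and over 0.1 in 14. Among the cords of its sex and exposure group, the animal's own matched its medulla best in 14 of 20. Correlations used log2 CPM with a prior of 0.5 counts, deviations from group means and 100000 permutations within groups (NumPy 2.4.6, SciPy 1.17.1). Alternatives were RLE factors, no filter, limma 3.58.1 (voom, quality weights), DESeq2 1.42.0, blocks by replicate number, smaller sets of libraries, leaving out libraries and, added after seeing the data, plain library totals. The fits were also run on simulated counts with known changes in some genes and without animal effects. That setting is simpler than these data, and its outcome is not used here.

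The genes and lists were chosen with earlier results of these data known. The rule for named genes took the 6 genes and the 2 IDs most like them. No Ensembl ID stood in the reference gene table (0 of 47357 rows), so other astrocyte genes and the marker lists of microglia, oligodendrocytes and their precursors, neurons, endothelium, mural cells, ependyma and blood could not be matched and were not analysed here. Libraries of the same group differed well beyond sampling noise (80 pairs, chi-square over its degrees of freedom at least 10.1).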

Additional observations from a re-analysis of the deposited data

Results flagged for a closer look

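Aqp4 in male hypoxia medulla replicate 5 read 11.4 CPM, against 2.33 to 4.92 CPM in the other 4 libraries of its group. The gap to the nearest library was 0.715 of the group's range, above Dixon's critical value of 0.71 for 5 libraries. Of 48 combinations of gene and group this was the 1 that stood out. Chance gives about 1 in 20 of such combinations, so 1 of 48 is no more than chance would give.

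In females the cord minus medulla difference of Aldoc differed between exposures by 1.57 (log2, edgeR adjusted p 0.0323). In the cord, the effect of exposure differed between the sexes by 2.1 for Aldoc and by 2.01 for S100b (log2, edgeR adjusted p 0.00627 for both).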

How the results depend on the processing

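Counts of astrocyte genes called kept within 1.5 times their main value in 108 of 114 alternatives that kept every library. The exceptions were all for cord over medulla. They were 0 in male hypoxia without the animal block (1 as reported) and 0 in female hypoxia with only the 10 libraries compared (3). The average gave 4 with limma voom (2). The female change with exposure (1) gave 3 with DESeq2, 3 with limma voom and 0 without the animal block. Without single libraries the counts ran from 0 to 1 in male normoxia and male hypoxia and from 0 to 3 in the female change with exposure. No called value changed sign under the alternatives run. In the alternatives that kept every library, single genes stayed on their side of the threshold in 632 of 647 combinations of gene, comparison and alternative. In these, 10 gained and 5 lost a call. In the fits without single libraries they stayed in 1370 of 1416, with 20 gaining and 26 losing a call. Values not called could change sign. The cause of these changes was not tested.

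Same-numbered libraries of different groups correlated at -0.45 to 0.72 in the medulla (13 of 30 pairs over 0.1) and at -0.11 to 0.35 in the cord (9 of 30). Among 5 candidates, the highest correlation was at the own number in 6 of 30 medulla pairs and in 14 of 30 cord pairs. What a shared number marks was not tested. Males and females share litters, and the labels do not say whether a number marks one. The reported region fits paired medulla and cord of the same sex, exposure and number as an animal. No reported fit paired numbers across sexes or exposures. With a block by replicate number across the groups of the cord, Gfap was called in the female cord by exposure (0.65, edgeR adjusted p 0.0192). It was also called in the cord interaction (0.84, adjusted p 0.0387).

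Genes called over the whole table differed by over 1.5 times from the reported counts as follows, beside the fits without single libraries given with the results. By region, DESeq2 and limma voom called 1848 and 3312 in male normoxia (reported 1055), 1986 and 2282 in male hypoxia (1216) and 2227 and 4461 in female normoxia (1201); only the 10 libraries compared gave 525 in male hypoxia, 3141 in female normoxia and 86 in female hypoxia (3736). By sex, the normoxia medulla (10) gave 16 and 26, the hypoxia medulla (11) 41 with DESeq2, and the normoxia cord (892) 1577 with DESeq2 and 592 without the filter. By exposure, the female medulla (0) gave 1 with plain library totals and 1 without normoxia replicate 5 or hypoxia replicate 3, and the male cord (0) gave 2 without hypoxia replicate 5. Depth limits Slc1a2, with 0 to 65 counts per library.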
